A study of Mus musculus with 6 samples.

Results

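The nuclear genes that encode the subunits of the oxidative phosphorylation complexes were followed in mouse dorsal skin during the days after depilation. Members were taken by symbol: those that start with Ndufa, Ndufb, Ndufc, Ndufs, Ndufv, Uqcr or Atp5, the Cox genes numbered 4 to 8, Sdha, Sdhb, Sdhc, Sdhd and Cyc1. Ndufa4l2, the Ndufaf assembly factors and pseudogene symbols were left out. The rule found 85 genes among the 32285 counted in each library: 36 of complex I, 4 of complex II, 9 of complex III, 19 of complex IV and 17 of complex V (ATP synthase). Ndufa4, named after complex I, was placed in complex IV, where its protein is now assigned. The 13 protein-coding genes of the mitochondrial genome, written mt- here, were measured beside them. All mice were wildtype FVB males, adults of postnatal days 55 to 57, whose back skin was shaved and waxed, a treatment that starts synchronous hair regrowth. Skin was taken without delay (0 h), after 4 h or 16 h, and on day 2, 4 or 6 (2 d, 4 d, 6 d). Runs of 6 values follow this order. At each time the cells of 2 mice were prepared apart, mixed in equal numbers and run as 1 droplet library, so there were 6 libraries in all and no replicate of any time point.

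Oxidative phosphorylation is the last stage of cell respiration. Complexes I and II feed electrons from NADH and succinate into the inner mitochondrial membrane, complex III passes them to cytochrome c, complex IV hands them to oxygen, and the proton gradient built on the way drives ATP synthase. All of these except complex II are built from proteins of both genomes, so their assembly needs transcripts from the nucleus and from the mitochondrial DNA. Resting hair follicle stem cells of the bulge are known to lean on glycolysis, and their activation brings growth, division and new lineages of the hair follicle (HF).

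The libraries held 7307 to 13878 cell barcodes and 72634390 to 112370376 UMIs (molecules counted once by their identifier), with medians of 5857.5 to 10351 UMIs per barcode. After removal of low-quality barcodes and doublets, 6520 to 11032 cells per library were analysed. At 2 d, 16.7% of barcodes were above the limit of 10% mitochondrial UMIs, against 3.3% to 9.87% in the other libraries. Pairs of libraries shared 7 to 47 barcodes. Cells were clustered without the members, the mt- genes, their related lists and genes of the cell cycle or correlated with it. Clusters were named from marker genes, and each name stands for a class that resembles the named cells: basal and suprabasal interfollicular epidermis (IFE.B, IFE.SB), basal and suprabasal upper hair follicle (uHF.B, uHF.SB), 3 outer bulge classes (OB1, OB2, OB3), inner bulge (IB), inner root sheath (IRS3), sebaceous gland (SG), T cell, Langerhans, melanocyte, and dermal papilla with fibroblasts (DP and fibroblast). OB1 joined HF cluster 5 (1197 cells), led by its markers Krt24, S100a4 and Cd34, HF cluster 1 (2869 cells), led by Gnmt and Sfrp1 with 1 of the OB1 markers among its top 10 genes, and HF cluster 11. SG was cut from Scd1, Plin2 and related lipid genes, and HF cluster 9, led by Krt25 and Krt28, failed the marker check. HF cluster 10, led by Basp1 and Tagln, passed it with 1 marker of the same list among its top 10 genes, and both are called by number. HF cluster 11 was led by the stress- and wound-related genes Cpa4, Ptgs2 and Serpinb2 and drew its cells mostly from 4 h (240), 16 h (139) and 6 d (76).

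In 5 of the 6 classes followed over time the members together made up more of the transcriptome at every later time than at 0 h, and in OB1 at every time from 16 h on. In OB1 the 85 genes took 1.57%, 1.43%, 2.42%, 2.72%, 2.82% and 2.33% of UMIs from 0 h to 6 d. In uHF.B the shares were 1.65%, 1.95%, 3.01%, 2.68%, 2.82% and 2.9%. The level at 16 h was 1.55 times that at 0 h in OB1 and 1.82 times in uHF.B. In the epidermis the later values lay nearer to that of 0 h: IFE.B went from 1.72% to 2.03%, 2.37%, 2.2%, 1.98% and 1.99%. IFE.SB stayed between 1.71% and 2.09%. uHF.SB went from 1.6% to 1.76%, 2.45%, 2.36%, 2.52% and 2.49%. T cells had their lowest share at 0 h, 1.23%, and their highest at 4 d, 2.18%. These are shares of each class's summed UMIs, so more transcript from these genes and less from others cannot be told apart, and no test can be made between time points of 1 library each.

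**Figure D1:**
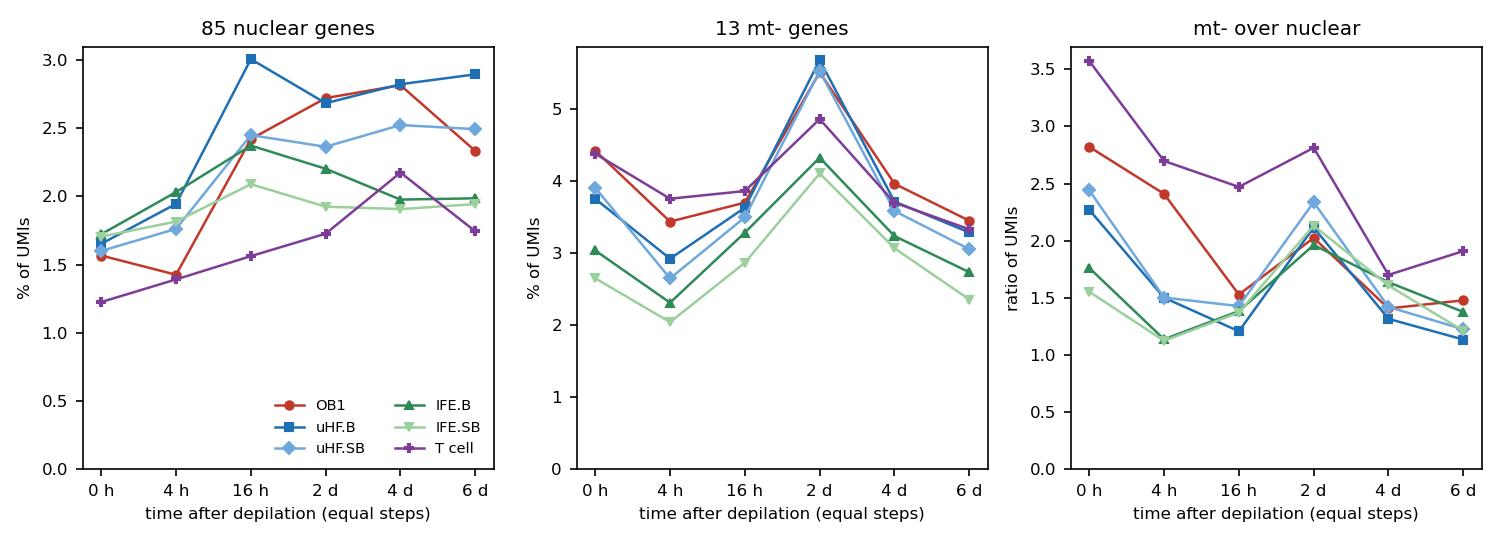
Share of UMIs from the 85 nuclear genes (left), from the 13 mt- genes (middle) and the ratio of mt- to nuclear UMIs (right) in 6 cell classes, 1 point per library, with the 6 times in equal steps on the x axis. The nuclear share of uHF.B goes from 1.65% at 0 h to 3.01% at 16 h, and the mt- share peaks at 2 d in all 6 classes.

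The mt- genes took another course. In OB1 they made up 4.42%, 3.44%, 3.7%, 5.51%, 3.96% and 3.45% of UMIs. In uHF.B the values were 3.75%, 2.92%, 3.63%, 5.68%, 3.71% and 3.28%. The highest mt- share of all 6 classes fell at 2 d, the library with the most barcodes above the mitochondrial limit, and its part in this was not tested. With the limit lowered to 5%, the ratio of 2 d to 0 h was 1.09 in place of 1.246 in OB1 and 1.253 in place of 1.51 in uHF.B. In all 6 classes there were fewer mt- UMIs per nuclear member UMI at 6 d than at 0 h: 1.48 after 2.82 in OB1, 1.13 after 2.27 in uHF.B, 1.22 after 2.44 in uHF.SB, 1.38 after 1.76 in IFE.B, 1.21 after 1.55 in IFE.SB and 1.91 after 3.57 in T cells. In between, the ratio was above that of 0 h in IFE.B at 2 d (1.962) and in IFE.SB at 2 d (2.13) and 4 d (1.61).

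OB1 is a mixture whose make-up shifted with time, so its clusters were also read apart. HF cluster 1, in which Krt24 and Cd34 were not among the top 10 genes, held 231 of 316 OB1 cells at 2 d, 1537 of 1708 at 4 d and 788 of 1192 at 6 d. HF cluster 5, with the bulge markers Krt24 and Cd34, had nuclear shares of 1.55%, 1.56%, 2.34%, 2.22%, 2.15% and 2.02%. HF cluster 1, with 47 cells at 0 h, went from 1.65% to 1.84%, 2.71%, 2.83%, 2.86% and 2.51%. Both clusters were thus higher at 16 h and later than at 0 h. HF cluster 11 had the lowest shares, 1.07% at 4 h, 2.09% at 16 h and 1.28% at 6 d. The 2 clusters of uHF.B had 1.65% and 1.68% at 0 h, 2.95% and 3.1% at 16 h and 2.81% and 3.04% at 6 d.

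Member by member, most genes were higher than at 0 h in the follicle, with a few large exceptions. A gene was counted where its 2 sums held at least 50 UMIs, and called higher or lower at a ratio of CPM (UMIs of a gene scaled to a fixed total per sum of cells) of at least 1.5. In OB1 at 16 h, 43 of 79 counted members were higher, against 32.1% of all genes, and 2 were lower, against 14% of all genes. At 2 d the OB1 counts were 57 higher (32.6% of all genes) and 0 lower (17.5%), and at 4 d 62 higher (42.5%) and 2 lower (15.6%). At 6 d, 37 members of OB1 were higher (32.6%) and 0 lower (10.2%). At 4 h OB1 went the other way, with 10 of 78 members higher (32.8%) and 14 lower (23.5%), and a median ratio of 0.88 beside 1.13 for all genes. HF cluster 11, with a nuclear share of 1.07%, gave 240 of the 492 OB1 cells at 4 h and 0 at 0 h. Its part in these counts was not tested.

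uHF.B had the largest share of members past 1.5-fold at 16 h, 66 of 79 (35.2% of all genes), with 2 lower (15.7%), and a median ratio of 1.87 beside 1.24 for all genes. It was already higher for 23 members at 4 h (31.6%), a share below that of all genes, and lower for 6 (28%). At 2 d 54 members were higher (21.7%), at 4 d 60 (33.5%) and at 6 d 61 (22.4%). uHF.SB followed with 48 of 78 at 16 h (29.7%), 32 of 79 at 2 d (16.6%), 52 of 78 at 4 d (27.1%) and 41 of 78 at 6 d (15.5%). In IFE.B 35 of 79 were higher at 16 h (18.7%), and the count was 20 at 2 d (7.51%), 7 at 4 d (12.6%) and 12 at 6 d (5.65%). IFE.SB had 14 of 78 at 16 h (17.9%) and 3 at 2 d (10.5%). In T cells 32 of 74 were higher at 16 h (28.3%), 41 of 78 at 2 d (25%) and 62 of 78 at 4 d (42%). The median ratio of T cell members at 4 d was 2.17, beside 1.3 for all genes. At 4 h 19 of 78 members were higher in uHF.SB (33.9%) and 8 lower (21.5%). In IFE.B 23 of 79 were higher at 4 h (27.1%) and 5 lower (33.8%). In IFE.SB these counts were 13 of 78 (30.7%) and 4 (24.6%), and in T cells 29 of 76 (30.7%) and 2 (14.1%).

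**Figure D2:**
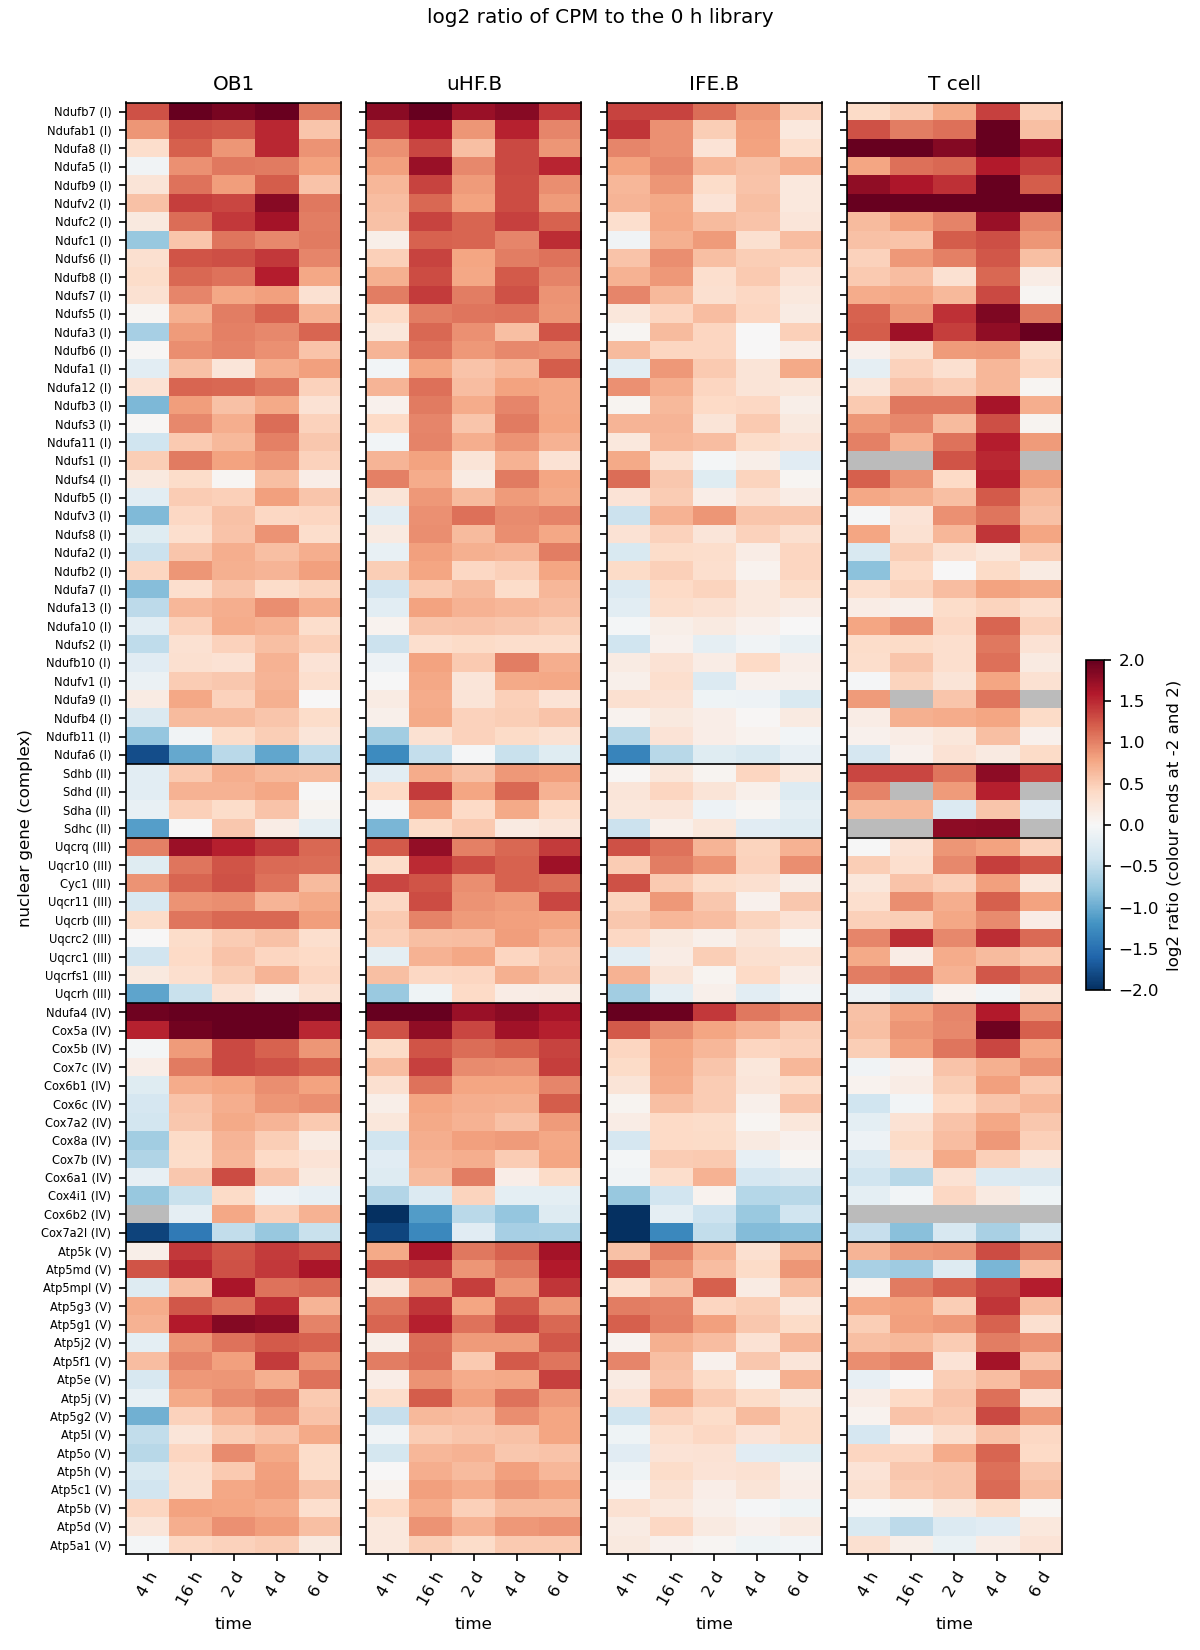
log2 ratio of CPM to the 0 h library for each counted nuclear gene, in rows ordered by complex, at the 5 later times in OB1, uHF.B, IFE.B and T cells (red higher, blue lower, grey under 50 UMIs). Most rows turn red from 16 h on, Ndufa4 and Cox5a are red throughout, and Cox7a2l is blue throughout. Cox4i1 is blue at 4 h and 16 h and red at 2 d. Ndufa6, Uqcrh and several other rows are blue at 4 h.

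Of all counted members, Ndufa4 of complex IV had the highest and, among those counted in all 6 classes, Cox7a2l of complex IV the lowest median ratio over the classes at 4 h and at 16 h. In single classes larger ratios were found in complex I, up to 11.2 for Ndufv2 and 7.42 for Ndufa8, both in T cells at 4 d. The most extreme members named here and further on that the naming rule had not already picked for these values were chosen after their ratios were seen. Ndufa4, a small subunit of complex IV, was at 107 CPM in OB1 at 0 h and at 413, 664, 514, 718 and 411 CPM at the later times. In uHF.B it was at 173 CPM at 0 h and at 816, 1002, 572, 602 and 551 CPM afterwards. Over the 6 classes its ratio to 0 h at 4 h had a median of 3.87 and ran from 1.44 to 6.49. Cox5a, a nuclear subunit on the matrix side of complex IV, went in OB1 from 158 CPM to 458, 604, 689, 789 and 452 CPM, and was above its 0 h level in all 6 classes at every time. Its median ratio was 2.23 at 4 h and 3.02 at 4 d. All later libraries lay above the 0 h library for both genes in OB1 and uHF.B.

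Cox7a2l, known as a factor that joins complexes III and IV into supercomplexes, moved the other way. It was at 452 CPM in OB1 at 0 h, then at 125, 169, 321, 267 and 333 CPM. In uHF.B its values were 510, 143, 208, 437, 320 and 324 CPM, and in IFE.B 512, 128, 209, 364, 280 and 288 CPM. It was below its 0 h level in all 6 classes at every later time, with a median ratio of 0.298 at 4 h (range 0.25 to 0.724) and 0.42 at 16 h. Cox4i1, the common isoform of a large nuclear subunit of complex IV, was also lower first, at 1049 and then 624 CPM in OB1 and at 1255 and then 840 CPM in uHF.B at 4 h. It was above its 0 h level at 2 d in all 6 classes, with a median ratio of 1.32, and lay below it again in 5 of 6 classes at 4 d.

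In complex I, Ndufa6, an accessory subunit of the LYR family, was like Cox7a2l lower in OB1 at every later time: 346 CPM at 0 h, then 101, 169, 238, 169 and 243 CPM. Its median ratio over the 6 classes was 0.409 at 4 h and 0.681 to 0.88 afterwards. At each time after 4 h, 1 of the 6 classes lay above its 0 h level. Ndufb7, an accessory subunit of the membrane arm, went in OB1 from 47 CPM to 114, 193, 175, 184 and 96.2 CPM. Its median ratio was 2.49 at 4 h and 2.75 at 16 h, above 1 in all 6 classes. The 3 complex I members with the highest mean level, Ndufb9, Ndufb8 and Ndufb11, parted at 4 h: their median ratios were 1.55, 1.49 and 0.646.

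In complex II the iron-sulfur subunit Sdhb was at 108, 92.7, 155, 179, 169 and 168 CPM in OB1, and the membrane anchor Sdhd at 48.6, 42.2, 79, 78.4, 82.7 and 48.5 CPM. The flavoprotein Sdha had median ratios between 0.977 and 1.48. In complex III the hinge protein Uqcrh was below its 0 h level in all 6 classes at 4 h, with a median ratio of 0.61, and at 16 h, with 0.868, while Uqcrb and Uqcr11 had medians of 1.67 and 1.85 at 16 h. Uqcrq of the same complex had medians of 2 at 4 h and 2.48 at 16 h. In complex V, Atp5h and Atp5l stood at median ratios of 0.933 and 0.869 at 4 h and of 1.32 and 1.26 at 16 h, while Atp5md had a median of 2.33 at 4 h and Atp5k one of 2.27 at 6 d. Cox8a was likewise at 0.777 and 1.3.

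The promoters of 4 of these genes are shown because 2 of them, Ndufa4 and Cox5a, gave high ratios in the first day and 2, Cox7a2l and Ndufa6, low ones. Each stretch comes from the RefSeq window of build GRCm38.p6, on the gene's strand and upstream of its start. Capitals mark searched motifs. Ndufa4 (6:11907498-11907700, minus strand), Cox5a (9:57520982-57521231, plus strand), Cox7a2l (17:83514334-83514583, minus strand) and Ndufa6 (15:82354323-82354541, minus strand) read as follows. The Cox7a2l stretch lies inside the gene as annotated in GENCODE, outside any exon.
Ndufa4: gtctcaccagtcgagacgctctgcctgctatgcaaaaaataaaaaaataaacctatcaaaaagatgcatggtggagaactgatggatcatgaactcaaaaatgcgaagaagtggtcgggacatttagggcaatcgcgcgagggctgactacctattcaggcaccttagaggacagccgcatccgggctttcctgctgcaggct
Cox5a: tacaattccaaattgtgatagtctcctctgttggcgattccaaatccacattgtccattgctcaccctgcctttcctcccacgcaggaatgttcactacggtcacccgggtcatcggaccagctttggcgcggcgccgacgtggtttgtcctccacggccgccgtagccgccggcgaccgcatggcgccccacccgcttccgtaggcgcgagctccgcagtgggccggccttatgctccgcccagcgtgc
Cox7a2l: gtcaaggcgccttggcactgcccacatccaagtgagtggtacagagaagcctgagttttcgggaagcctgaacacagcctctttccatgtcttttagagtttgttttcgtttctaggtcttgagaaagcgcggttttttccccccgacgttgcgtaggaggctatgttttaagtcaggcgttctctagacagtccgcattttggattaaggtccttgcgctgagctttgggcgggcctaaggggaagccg
Ndufa6: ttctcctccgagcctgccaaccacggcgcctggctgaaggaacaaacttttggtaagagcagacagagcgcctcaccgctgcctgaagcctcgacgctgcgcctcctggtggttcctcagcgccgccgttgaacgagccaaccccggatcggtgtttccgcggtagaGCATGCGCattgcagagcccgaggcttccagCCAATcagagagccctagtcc

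The stretch of Ndufa6 holds the NRF1 core GCATGCGC and a CCAAT box, and the other 3 hold none of the motifs searched. RefSeq windows of 250 bases before to 50 after the start were found for 68 of the 85 members, 73 windows in all. Both strands were searched. The NRF1 core GCATGCGC was in 13.7% of the members' windows, against 2.71% of all 32851 windows. The ETS core CCGGAAG was in 23.3% against 8.86%, and the YY1 core AAGATGGC in 12.3% against 2.75%. The CCAAT box was in 42.5% against 37.4%, and the nuclear receptor element AAGGTCA in 11% against 4.72%. These are letter matches and say nothing on binding in these cells.

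Several complex IV subunits and subunit c of the ATP synthase come as isoforms or paralogs from separate genes, known for use in different tissues. Counting is by 3′ tag, so values are not divided by gene length. Cox4i1 had 624 to 1370 CPM in OB1, while Cox4i2, known from lung and hypoxia, had at most 0.553 CPM there and 165 UMIs in all cells. Cox6a1 stood at 78.2 to 217 CPM in OB1, and its striated muscle isoform Cox6a2 had 37 UMIs in all cells. Of Cox7a, Cox7a2 had 244 to 529 CPM in OB1 and the muscle isoform Cox7a1 225 UMIs in all cells. Cox8a stood at 346 to 902 CPM in OB1, against 18 UMIs of Cox8b and 3 of Cox8c over all cells. Cox7b stood at 150 to 358 CPM in OB1, and Cox7b2 had 5 UMIs in all. In these families most UMIs came from the broadly expressed isoform, and Cox7b2, Cox8b, Cox8c and Cox6a2, with under 100 UMIs each, were left out of the fits with the count filter.

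Cox6b2, known mainly from testis, was the isoform with a clear pattern in skin. In OB1 it had 16.6, 5.27, 14.6, 28.5, 23 and 27 CPM at the 6 times, beside 227 to 516 CPM of Cox6b1. In uHF.B it had 38.2, 7.07, 17.5, 26.3, 22.4 and 31.8 CPM, and in IFE.B 0.9 to 4.31 CPM. Its 4 h value was the lowest of the 6 in OB1, uHF.B and IFE.B. Of the subunit c genes in OB1, Atp5g1 stood at 248 CPM at 0 h and 883 CPM at 2 d, Atp5g3 at 150 CPM and, at 4 d, 415 CPM, and Atp5g2 at 611 CPM, 313 CPM at 4 h and 1150 CPM at 4 d. The proteins of the subunit c genes are processed to the same mature subunit.

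The ratios of the mt- genes to 0 h diverged from each other between libraries in a way that all 6 classes shared. mt-Nd4l, a small complex I subunit, had median ratios to 0 h of 2.23, 2.53, 0.784, 2.53 and 4.71 at the 5 later times. mt-Atp8, a small subunit of the ATP synthase, had 1.76, 2.03, 0.245, 1.88 and 2.73. mt-Nd1 moved opposite to them, with 0.519, 0.817, 1.62, 0.428 and 0.457. At 2 d the ratio of mt-Atp8 lay between 0.215 and 0.298 and that of mt-Nd1 between 1.47 and 1.76 over the 6 classes, T cells included. In uHF.B mt-Atp8 was at 98.6, 188, 201, 29.4, 206 and 300 CPM and mt-Nd4l at 211, 498, 528, 186, 572 and 1219 CPM. mt-Atp8 overlaps mt-Atp6 by 43 bases and mt-Nd4l overlaps mt-Nd4 by 7 bases on the same strand, so reads of the overlaps cannot be told apart. The overlapping partners parted, with a median ratio of 1.31 for mt-Atp6 at 2 d and of 0.786 for mt-Nd4 at 6 d. Changes of transcript level and differences between libraries in tag capture or read assignment cannot be told apart here.

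The other mt- genes had medians between 0.537 and 2.07. mt-Co1 and mt-Co3, catalytic and core subunits of complex IV, had median ratios of 0.638 and 0.537 at 4 h and of 1.46 and 1.46 at 2 d. mt-Co2 stayed between 0.96 and 1.32, and mt-Atp6 between 0.964 and 1.31. mt-Cytb, the mitochondrial subunit of complex III, reached 2.07 at 2 d. mt-Nd2, mt-Nd3, mt-Nd4, mt-Nd5 and mt-Nd6 had medians between 0.552 and 0.774 at 4 h. All mt- genes together gave 46.9% of their UMIs in complex IV, whereas 26.1% of the nuclear members' UMIs were from complex IV and 33.4% from complex V.

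**Figure D3:**
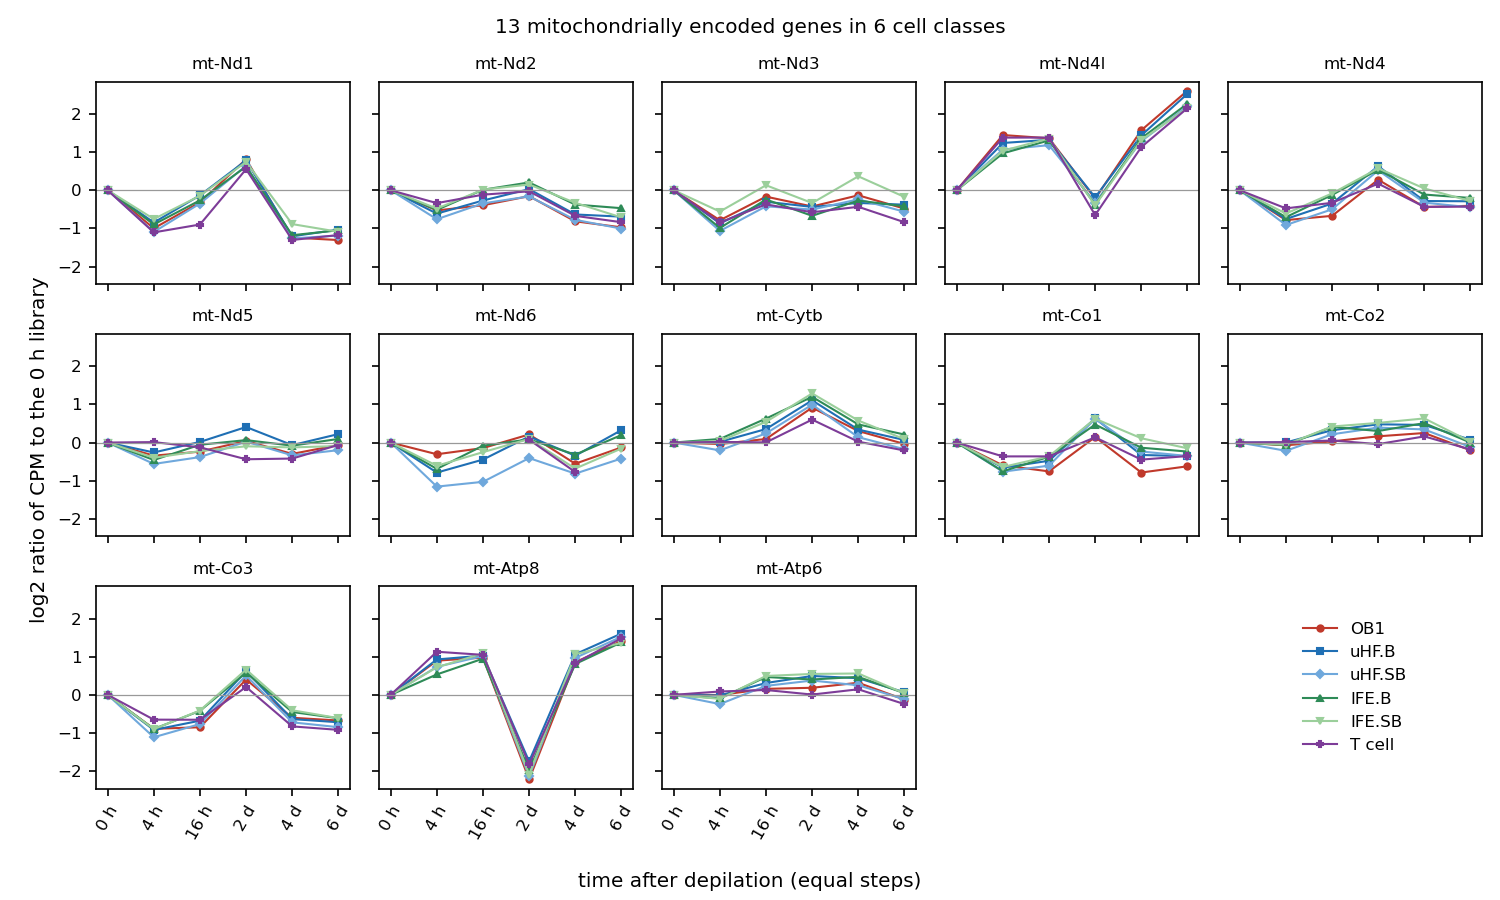
log2 ratio of CPM to the 0 h library for each of the 13 mt- genes over the 6 times (equal steps), 1 line per cell class. The lines of the 6 classes run close together: at 2 d mt-Atp8 is at ratios of 0.215 to 0.298 in all of them.

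No member passed the test for a change over the time course. A curve through the 6 libraries of each class (edgeR quasi-likelihood test, Benjamini-Hochberg over all genes tested) called 0 of 79 members in OB1, where it called 0.309% of all genes (0.218% higher and 0.091% lower). It called 0 of 78 in T cells (0.0514% of all genes), and 0 of 79 in uHF.B, uHF.SB, IFE.B and IFE.SB, where no gene of any kind was called (0%). Of the mt- genes, 0 of 13 were called in each class, 0 also at an unadjusted p under 0.05. At an unadjusted p under 0.05 there was 1 member, Atp5mpl in T cells, with a log2 trend of 1.38. DESeq2 also called 0 members in all 6 classes, with 1 member at an unadjusted p under 0.05, in IFE.SB, and 0 mt- genes, with 1 each at that level in uHF.B, uHF.SB and IFE.SB. The curve leaves 2 degrees of freedom, so the spread of the libraries around it is poorly known.

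The fitted linear trend was nevertheless positive for 65 of 79 members in OB1, 76 in uHF.B and 78 in uHF.SB, and for 71 of 78 in T cells. Its median was 0.37 log2 units in OB1, 0.46 in uHF.B, 0.61 in uHF.SB and 0.45 in T cells, beside -0.02, -0.05, -0.04 and -0.07 over all genes. In IFE.B it was positive for 33 of 79 members, with a median of -0.02, and in IFE.SB for 53, with 0.16. By complex, the median trend in OB1 was 0.36 for complex I, -0.05 for complex II, 0.23 for complex III, 0.46 for complex IV and 0.40 for complex V. The mt- genes had medians of -0.31 in OB1 and -0.24 in T cells. With time on the scale log2(hours + 1), OB1 had 4 called members, Ndufa4, Ndufb7 and Cox5a with positive trends and Cox7a2l with a negative one, where 16.6% of all genes were called. Without the 0 h library OB1 also had 4 called, Ndufc1, Cox6b2, Atp5mpl and Atp5g2, among 2215 of 11037 genes, and T cells had 2, Atp5mpl and Atp5md, among 635 of 7845. Without the 6 d library T cells had 1, Ndufv2, among 329 of 7750.

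Other genes of the organelle were read beside the members. Over the time course 0 genes were called in any of the lists of assembly factors, mitochondrial ribosomal proteins, mitochondrial transcription and replication, tricarboxylic acid (TCA) cycle, carriers, and regulators. In uHF.B the median trend was 0.06 for 43 assembly factors, 0.02 for 78 mitochondrial ribosomal proteins, -0.10 for 14 genes of transcription and replication, 0.13 for 17 of the TCA cycle, 0.02 for 10 carriers and -0.20 for 9 regulators, beside medians of 0.30 to 0.54 for the 5 complexes. In OB1 the lists had medians of -0.14 (regulators) to 0.12 (assembly factors). In T cells the medians were 0.29 for the mitochondrial ribosome, 0.34 for the carriers and 0.29 for the regulators, beside 0.285 for complex II and 0.42 to 0.64 for the other complexes.

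Cycling cells were then set against non-cycling cells of the same library. Cycling cells had at least 2 UMIs of 10 proliferation markers after thinning to 2000 UMIs. They made up 10.2%, 3.56%, 10.1%, 40.6%, 50.9% and 23.4% of OB1 and 23.2%, 8.09%, 46.6%, 39.6%, 41.6% and 44.2% of uHF.B over the 6 times. The nuclear share was higher in cycling than in non-cycling cells in all 6 libraries of both classes. In OB1 the pairs were 1.6% and 1.56%, 1.56% and 1.44%, 2.61% and 2.39%, 3% and 2.41%, 2.95% and 2.64%, and 2.82% and 2.13%. The cycling sums of OB1 held 32, 16 and 51 cells at 0 h, 4 h and 16 h. The 2 states were not split by HF cluster, so the part of cluster make-up in these differences was not tested. Non-cycling cells were higher later as well: in uHF.B they went from 1.57% at 0 h to 2.92% at 16 h and 2.72% at 6 d.

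At single genes the difference by cell cycle was small. In OB1 4 of 79 members were higher in cycling cells (7.76% of all genes) and 1 lower (8.09%), both shares below those of all genes. Cox5a was higher in all 6 libraries, at 183 against 155 CPM at 0 h and 895 against 457 CPM at 2 d, by 0.49 ± 0.13 (SE) log2 units (edgeR adjusted p = 0.0111). Cox7c, Ndufa5 and Ndufb7 were higher by 0.40, 0.41 and 0.45 log2 units. Ndufa6 was lower, by -0.42 ± 0.13 log2 units (edgeR adjusted p = 0.0343), in 5 of 6 libraries. The count rested on the late libraries: 1 member was called without the 4 d library and 0 without the 6 d library, and 8 without the 0 h, 4 h or 16 h library.

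In uHF.B 20 of 79 members were higher in cycling cells (13.5% of all genes) and 5 lower (19.4%). Cox6b2 had the largest difference, in time order 57.2 against 30.9, 30.2 against 4.36, 21.2 against 13, 32.9 against 20.8, 32.5 against 12.6 and 39.8 against 23.6 CPM. It was higher by 0.82 ± 0.12 log2 units (edgeR adjusted p = 6.27e-06). Ndufb7, Ndufa5, Sdhd and Ndufab1 were higher by 0.31, 0.28, 0.28 and 0.27 log2 units, each in 6 of 6 libraries. Ndufa6 and Cox7a2l were lower in 6 of 6 libraries, by -0.39 and -0.35, and Uqcrh, Atp5l and Cox4i1 by -0.24, -0.15 and -0.14. By complex, 9 members of complex I, 1 of complex II, 2 of complex III, 5 of complex IV and 3 of complex V were higher. With library sizes taken without the mt- genes the split was 28 higher and 3 lower, and without the 4 h library 37 and 5, against 13 and 3 without 2 d or without 6 d.

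The mt- genes did not share the direction of the nuclear members. In uHF.B 0 of 13 were higher and 6 lower in cycling cells, namely mt-Co3, mt-Nd2, mt-Co1, mt-Nd4, mt-Atp6 and mt-Cytb, by 0.12 to 0.18 log2 units in size. In OB1 2 were lower, mt-Co1 by -0.21 and mt-Atp6 by -0.19, and 0 with DESeq2 size factors. Around the complexes, 15 of 78 mitochondrial ribosomal genes were higher and 1 lower in cycling uHF.B, and 11 and 0 in OB1. Assembly factors split 5 to 8 in uHF.B and 2 to 1 in OB1, and the TCA cycle 2 to 2 and 2 to 0. Of the regulators Myc was lower by -0.78 log2 units in uHF.B and -1.07 in OB1, and Gabpb1, a subunit of an ETS factor complex, higher by 0.55 and 0.89.

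The cell classes also differed in level. The sebaceous gland class was highest, at 3.41% to 4.45% nuclear member UMIs (median 4.16%, 5 libraries) with 5.51% to 7.82% mt-. HF clusters 9 and 10, present at 4 d and 6 d, followed with 3.29% to 3.38% and 3.38% to 3.5%. DP and fibroblast had 2.74% and 2.89%. The medians of the other classes were 2.75% in uHF.B, 2.59% in melanocytes, 2.41% in uHF.SB, 2.38% in OB1, 2.34% in OB3, 2.22% in IRS3, 2.01% in IFE.B, 1.97% in OB2, 1.92% in IFE.SB, 1.86% in Langerhans, 1.69% in IB and 1.65% in T cells. These medians are over different libraries, since SG had no value at 0 h, IRS3 had values from 2 d on and IB had none at 2 d and 4 d. IB was above Langerhans in both the 0 h library (1.6% and 1.16%) and the 16 h library (2.09% and 1.82%). Neighbours from melanocyte to T cell overlapped in their ranges over libraries. At the limit of 10% mitochondrial UMIs SG and the other classes did not, apart from HF cluster 10 with its 3.5% at 4 d. This separation did not hold at a limit of 5%. There 69 of 240 SG cells were left at 4 h, with 2.8%, and SG had no value at 2 d. uHF.B had 3.03% at 16 h and melanocytes 3.52% at 4 d at that limit. SG stayed above uHF.B of the same library at 4 h, 16 h, 4 d and 6 d. Median UMIs per cell were 7971 to 21568 in SG and 2020.5 to 2701.5 in T cells, and the part of this depth in the order was not tested.

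**Figure D4:**
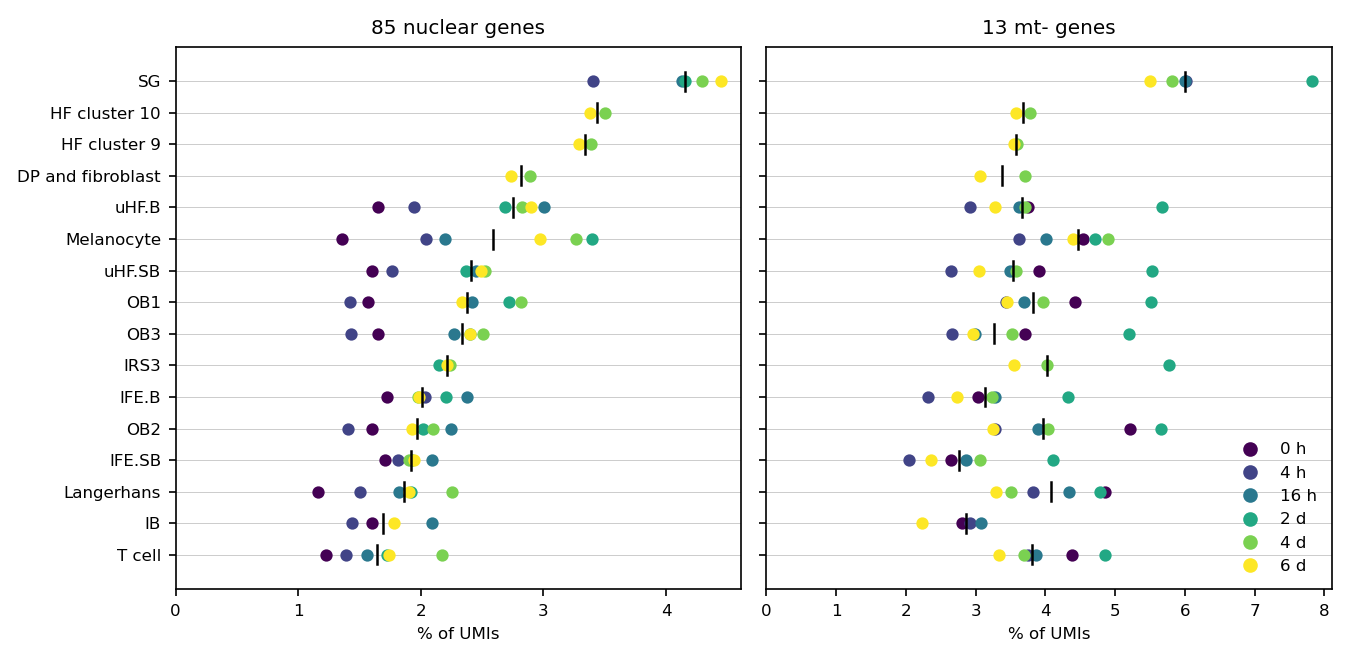
Share of UMIs from the 85 nuclear genes (left) and the 13 mt- genes (right) in 16 cell classes, 1 point per library coloured by time, with black bars at the medians. SG lies highest on both sides, with medians of 4.16% and 6%.

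Sebaceous gland cells were higher than uHF.B in nearly all members. Of 80 tested, 73 were higher (23.5% of all genes) and 1 lower (26% of all genes), with a median of 0.62 log2 units beside -0.05 over all genes. The share called in either direction was 49.5%. The test took both classes from the same 5 libraries (edgeR with library as block), since 0 h held 13 SG cells. By complex 34 of 36, 4 of 4, 8 of 9, 11 of 14 and 16 of 17 members of complexes I to V were higher. All 13 mt- genes were higher as well, from mt-Nd3 at 0.57 to mt-Nd6 at 1.23 log2 units. The p-values of class comparisons say how steady a difference was over libraries, since classes were cut from other genes of the same cells.

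Among the genes named, Cox7b, a small complex IV subunit, stood at 610, 732 and 947 CPM (lowest, median and highest library) in SG and at 188.5, 358 and 381 CPM in uHF.B, with no overlap. It was higher by 1.247 ± 0.10 (SE) log2 units (edgeR adjusted p = 4.41e-06). Ndufab1, the mitochondrial acyl carrier protein that also serves as a complex I subunit, was at 487 to 739 against 195 to 322 CPM, higher by 1.16 ± 0.09. Uqcrq, a complex III subunit, was at 777 to 930 against 326 to 548 CPM, and Ndufb7 at 241 to 400 against 121 to 231 CPM. Their differences were 1.02 and 1.00 log2 units. Cox7a1 was higher by 2.69 ± 0.44 log2 units but had at most 3.11 CPM in SG. Cox6b2 was the lower member, at 2.35 to 20.3 against 7.07 to 31.8 CPM, by -0.90 ± 0.16 (edgeR adjusted p = 0.00104), with overlap.

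The neighbouring pathways were higher in SG too. Of the mitochondrial ribosomal genes 59 of 78 were higher and 0 lower, of the assembly factors 32 of 43 and 1, and of the TCA cycle 13 of 17 and 1. Suclg1 of the TCA cycle was higher by 1.45 ± 0.09 log2 units and Cs, citrate synthase, by 1.35 ± 0.11. Acad9, an assembly factor of complex I that is also an acyl-CoA dehydrogenase, was higher by 2.79 ± 0.15. Carriers were 8 of 10 higher, transcription and replication 5 of 14, and regulators 3 higher and 3 lower of 9, with Esrra at 0.80 and Nrf1 at -0.67 log2 units.

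**Figure D5:**
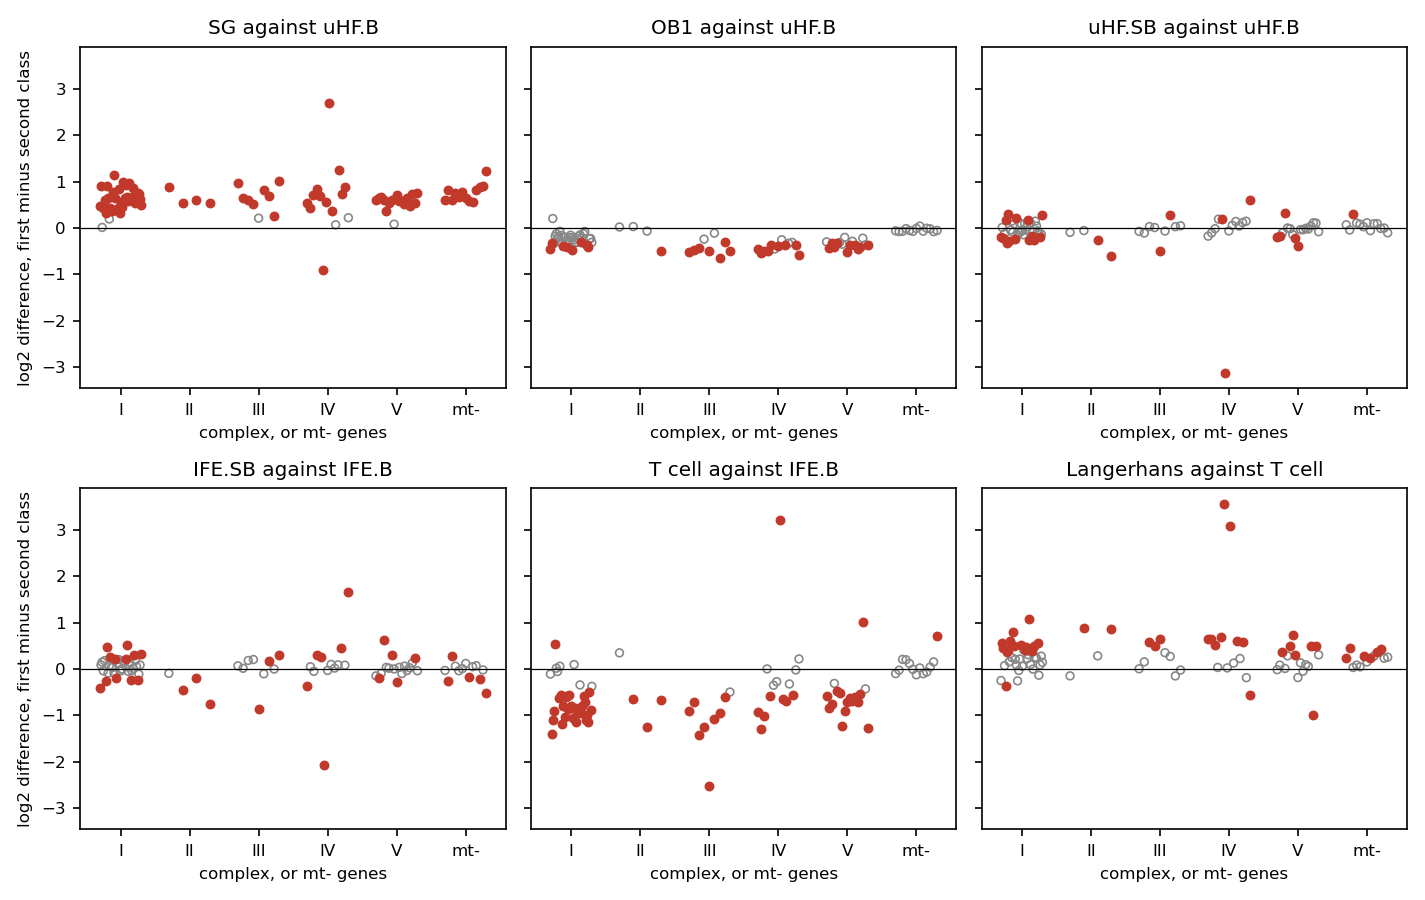
log2 difference between 2 cell classes for each tested nuclear gene, grouped by complex, and for the mt- genes, in 6 pairs of classes. Filled points passed an adjusted p of 0.05 and open ones did not; 73 filled points of nuclear genes lie above 0 in SG against uHF.B and 60 lie below 0 in T cell against IFE.B.

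OB1, with 2869 of its 4530 cells in HF cluster 1, had more members called lower than higher against uHF.B. Of 79 members 0 were higher (14.6% of all genes) and 35 lower (10.8%), with a median of -0.32 log2 units beside 0.00 over all genes. Complex III had 7 of 9 members lower, complex IV 9 of 13, complex V 10 of 17, complex I 8 of 36 and complex II 1 of 4. The summed nuclear share of OB1 was lower in 5 of 6 libraries and higher in 1, with differences of -0.586 to 0.0374 percentage points. By CPM, 12 of 79 counted members were lower in every library (1005 of 12683 genes) and 2 higher (2315). At 2 d and 4 d HF cluster 1 had 2.83% and 2.86%, beside 2.68% and 2.82% in uHF.B. HF cluster 5 had 2.22% and 2.15%. The share of cycling cells was lower in OB1 than in uHF.B at 0 h, 4 h, 16 h and 6 d and higher at 2 d and 4 d. At 16 h it was 10.1% against 46.6%, and at 4 d 50.9% against 41.6%. The part of cycling in this pair was not tested. None of the 13 mt- genes passed, 0 also at an unadjusted p under 0.05 and by DESeq2, and their median was -0.05. The summed mt- share was higher in OB1 in 5 of 6 libraries and lower in 1, with differences of -0.169 to 0.668 percentage points. Uqcrfs1, the Rieske iron-sulfur protein of complex III, was lower in 6 of 6 libraries, at 97.9, 127 and 157 CPM (lowest, median and highest) against 130, 185 and 213 CPM, by -0.65 ± 0.10 log2 units (edgeR adjusted p = 0.00112). Ndufa4, Cox5a, Atp5g3 and Cyc1 (cytochrome c1) were lower by -0.57, -0.53, -0.52 and -0.52, with ranges that overlapped. The count was 8 without the 6 d library 21 without 4 d, and 28 lower and 1 higher with HF cluster 11 taken out of OB1. Of the lists, 9 of 78 mitochondrial ribosomal genes, 3 of 43 assembly factors and 3 of 17 TCA cycle genes were lower and 0 higher.

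OB2, the bulge class with Sncg and Fgf18, was lower than OB1 in 5 of 79 members (13.2% of all genes) and higher in 0 (10.5%). Cox6b2 was at 0 to 9.05 CPM in OB2 and at 5.27 to 28.5 CPM in OB1, a difference of -2.94 ± 0.41 log2 units (edgeR adjusted p = 0.000122). Ndufa4, Atp5g1, Uqcrc1 and Ndufa12 followed with -0.70, -0.52, -0.43 and -0.43, all lower in 6 of 6 libraries. The count was 3 without 2 d, 2 without 4 d or without 6 d and 8 without 0 h or without 4 h, and 9 without HF cluster 11. Mitochondrial ribosomal genes were lower in 8 of 78.

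HF clusters 9 and 10 shared only 2 libraries with OB1, so no test was made. In both libraries their nuclear share was higher, by 0.568 and 0.954 percentage points in cluster 9 and by 0.683 and 1.05 points in cluster 10. Of 79 members with at least 50 UMIs in the sums compared, cluster 9 was above OB1 in both libraries for 67 (35.8% of all genes) and below for 4 (42.6%), and cluster 10 for 71 (34.9%) and 2 (37.8%). Their cells were mostly cycling, 61.4% to 75% in cluster 9 and 73.8% to 73.9% in cluster 10 at these times, beside 23.4% and 50.9% in OB1, and the part of cycling in the difference was not tested.

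Suprabasal cells had a lower summed share of the members than basal cells in every library, while single genes were called in both directions. Cycling cells made up 4.66% to 16% of IFE.SB and 7.71% to 32.1% of IFE.B over the libraries. In uHF.SB they made up 2.3% to 14.1%, beside 8.09% to 46.6% in uHF.B. The part of cycling in the differences of both pairs was not tested. In IFE.SB against IFE.B 16 of 79 members were higher (29.5% of all genes) and 13 lower (33.2%, or 62.7% in either direction). The median was 0.04 log2 units, although the summed nuclear share was lower in all 6 libraries, by 0.0174 to 0.283 percentage points. By CPM, 38 of 79 counted members were lower in every library (39.2% of all genes) and 4 higher (18.6%). Ndufa4 was at 545, 910 and 1461 CPM (lowest, median and highest) in IFE.SB and at 127, 300 and 821 CPM in IFE.B, higher in 6 of 6 libraries, by 1.66 ± 0.34 log2 units (edgeR adjusted p = 0.00292). Atp5d, Ndufc1, Ndufa3 and Cox7c were higher by 0.63, 0.53, 0.48 and 0.47. Uqcrc1, a core protein of complex III, was at 119 to 171 against 218 to 357 CPM, lower by -0.85 ± 0.06 (edgeR adjusted p = 3.57e-06), with no overlap. Sdhd and Sdhb of complex II also did not overlap between the classes, with -0.76 and -0.45, and Ndufa1 was lower by -0.41. Cox6b2 was lower by -2.08. The count was 18 without the 16 h library and 15 without 4 d.

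The follicle pair showed several of the same genes in the same direction. uHF.SB held HF cluster 2 (2482 of 4686 cells), whose top 10 genes included Krt1, Krt10 and Lor, which also served as markers of IFE.SB. The part of this in the likeness was not tested. Its other cluster, HF cluster 4, was led by Cst6 and Defb6. In uHF.SB against uHF.B 9 of 79 members were higher (28.6% of all genes) and 17 lower (30.3%). The summed share was lower in uHF.SB in 6 of 6 libraries, by 0.0524 to 0.558 percentage points. HF cluster 4 alone was above uHF.B at 0 h (1.69% and 1.65%) and below it at the later times. By CPM, 43 of 79 counted members were lower in every library (32.4% of all genes) and 1 higher (17.5%). Cox6b2 was at 0.421 to 4.16 CPM in uHF.SB and at 7.07 to 38.2 CPM in uHF.B, lower by -3.12 ± 0.16 log2 units (edgeR adjusted p = 4.77e-08). Sdhd, Uqcrc1, Atp5g3 and Ndufa2 were lower by -0.61, -0.50, -0.39 and -0.31, each in 6 of 6 libraries. Ndufa4 was higher in 6 of 6, by 0.60 ± 0.10, followed by Atp5d, Ndufa3, Uqcrfs1 and Ndufv3 at 0.32, 0.29, 0.28 and 0.28. mt-Co1 was higher in both suprabasal classes, by 0.29 and 0.30, and mt-Nd6 lower in IFE.SB by -0.51. Mitochondrial ribosomal genes were lower in 33 and higher in 3 of 78 in the follicle, and lower in 17 and higher in 11 in the epidermis. Transcription and replication genes were lower in 7 and 6 of 14, and higher in 0. Without the 4 d library the follicle count was 15.

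T cells stood below basal epidermis in most members. Of 80 tested 3 were higher (27.4% of all genes) and 60 lower (32.3%, or 59.7% in either direction), with a median of -0.69 log2 units beside -0.12 over all genes. Complex I had 28 of 36 lower, complex II 3 of 4, complex III 8 of 9, complex IV 7 of 14 and complex V 14 of 17. The summed nuclear share was lower in T cells in 5 of 6 libraries and higher at 4 d (2.18% and 1.98%). By CPM, 28 of 79 counted members were lower in every library (3222 of 13233 genes) and 5 higher (3472). The mt- genes did not follow, with 1 of 13 higher (mt-Nd6, by 0.71) and 0 lower, and the mt- share of UMIs was higher in T cells in 6 of 6 libraries. Uqcrc1 was at 43.8, 65.6 and 73.7 CPM (lowest, median and highest) in T cells and at 218, 297 and 357 CPM in IFE.B, lower by -2.52 ± 0.18 log2 units (edgeR adjusted p = 2.36e-08). Uqcr11, Ndufa10, Cox5a and Atp5o were lower by -1.43, -1.40, -1.29 and -1.27, and of these Cox5a overlapped between the classes. Atp5md and Ndufa13 were the higher members, by 1.01 and 0.55, with no overlap, beside Cox7a1 (3.22 ± 0.90 log2 units at no more than 3.15 CPM). Of the mitochondrial ribosomal genes 60 of 78 were lower and 2 higher, of the assembly factors 12 and 6 of 43.

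Langerhans cells, the dendritic cells of the epidermis, were above T cells in 33 of 80 members (23.6% of all genes) and below in 3 (26.5%, or 50.1% in either direction), with a median of 0.28 log2 units beside -0.03 over all genes. Cox6b2 was at 18.5 to 58.4 CPM in Langerhans and at 0 to 7.24 CPM in T cells, higher by 3.58 ± 0.38 (edgeR adjusted p = 9.34e-07), with no overlap. Cox7a1 was higher by 3.10 ± 0.55, at a median of 10.2 against 0.63 CPM. Ndufc2, Sdhb and Sdhd were higher by 1.08, 0.89 and 0.86 in 6 of 6 libraries, and Atp5md, Ndufa4 and Ndufa13 lower by -0.99, -0.56 and -0.37 in 6 of 6. Of the mt- genes 6 of 13 were higher. With equal numbers of cells in both classes 22 members were called in place of 36.

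Melanocytes, with 29 to 274 cells per library, had 1 of 79 members called higher than in OB1 (13.1% of all genes) and 3 lower (18.7%). Their summed share was higher in 4 of 6 libraries, by up to 0.677 percentage points, and lower in 2. By CPM, 12 of 79 counted members were higher in every library (11.1% of all genes) and 1 lower (14.5%). Ndufb7 was at 91.5, 295 and 341 CPM (lowest, median and highest) against 47, 145 and 193 CPM, higher in 6 of 6 libraries, by 0.75 ± 0.22 log2 units (edgeR adjusted p = 0.00861). Ndufa11, an accessory complex I subunit, was at 91.5 to 267 against 243 to 644 CPM, lower by -1.30 ± 0.23, and Ndufb2 and Ndufs6 were lower by -0.63 and -0.61. All 4 are complex I genes. The count was 2 without the 16 h library and 1 without 6 d. Over time the nuclear share of melanocytes went from 1.35% at 0 h to 3.4% at 2 d.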

How the data were processed

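Single-cell 3′ libraries of mouse dorsal skin, 1 per time point, were analysed from the deposited matrices of whole-number UMI counts per gene and barcode, which the authors made with Cell Ranger 6.1.2 against mm10, as the submitters' processing notes name them. The annotation release is not given in the sources used here.

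Barcodes with 500 to 7000 genes and at most 10% mitochondrial UMIs were kept. Doublets were removed by Scrublet score (scanpy 1.11.5) at 0.8% per 1000 cells, because its own threshold marked too few in some libraries. Cells were integrated and clustered with Seurat 5.3.0 (2000 variable genes, 30 components, resolution 0.2, and 0.4 for follicle cells), with the members, the mt- genes and the pathway lists kept out. The cycling markers, cell cycle genes and genes correlated with these above 0.2 were kept out as well. In all 879 genes were left out, 508 of them for this correlation. UMIs were summed per library and class of at least 20 cells. Sums were tested with edgeR 4.0.16 (limma 3.58.1, R 4.3.3): TMM, filterByExpr, robust quasi-likelihood fit and Benjamini-Hochberg adjustment over all genes tested, at 0.05. The time course used a natural spline of hours with 3 degrees of freedom, and all other tests used library as block. Both kinds of fit were tested on simulated counts. Cells are not replicates, and each library mixes 2 mice. In the class and cycling tests the p-values say how steady a difference within libraries was over the libraries. In the time course they rest on what the curve leaves over. Counting intervals (95%) of shares cover counting error only.

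The members and the gene lists were chosen with earlier results of these data known. Genes were named by rule: in each complex the 3 members with the highest mean CPM, in each test the 5 called members with the largest fold in each direction, all members of isoform families, members under 100 UMIs, all mt- genes, and up to 4 called genes of each pathway list, of which a part is printed. The lists were assembly factors, mitochondrial ribosome, mitochondrial transcription and replication, TCA cycle, carriers and regulators. Alternatives were DESeq2 1.42.0, its size factors, sizes without mt- genes, other filters, time scales, clusterings and cell limits, and each library left out. Motifs were searched in RefSeq promoter windows of GRCm38.p6 and positions read from the GENCODE vM21 annotation.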

Additional observations from a re-analysis of the deposited data

Results flagged for a closer look

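The change of the nuclear members' share of UMIs from 0 h to 4 h had opposite signs in different cell classes, and this difference was not tested, since each time point is 1 library. It was negative in the 4 classes named after the bulge: -0.159 percentage points in IB, -0.141 in OB1, -0.195 in OB2 and -0.214 in OB3. It was positive in the 7 other classes with both libraries: 0.309 in IFE.B, 0.11 in IFE.SB, 0.293 in uHF.B, 0.162 in uHF.SB, 0.166 in T cells, 0.342 in Langerhans and 0.686 in melanocytes. HF cluster 11, led by Ptgs2 and Serpinb2, made up 240 of the 492 OB1 cells at 4 h and had a nuclear share of 1.07%. Without it, HF cluster 5 had 1.55% at 0 h and 1.56% at 4 h, and HF cluster 1 had 1.65% and 1.84%. IB had 21 cells at 0 h, and melanocytes 29.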

How the results depend on the processing

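No paired analysis was possible because each time point is 1 library, so the only replicate number is 1. This concerns the time points, and the class and cycling tests paired sums of the same library through its block. No named, called gene reversed: such a gene passed the threshold again under an alternative 2913 times and missed it 377 times. Time course: on the scale log2(hours + 1) OB1 had 4 called members, and leaving out each library gave 0 to 4 in OB1, 0 to 2 in T cells and 0 in the other classes. Cycling against non-cycling in OB1 (5 called): 9 without mt- genes, with DESeq2 size factors and without thinning, 8 with DESeq2, 1 without the count filter, 2 at a limit of 5% mitochondrial UMIs, 3 at 1 and 21 at 4 cycling UMIs, and 0 to 8 with each library left out. In uHF.B (25 called) leaving out gave 16 to 42. Class pairs without the library block: 7 in IFE.SB against IFE.B (29 called with it), 2 in uHF.SB against uHF.B (26), 1 in OB1 against uHF.B (35), 1 in OB2 against OB1 (5), 13 in Langerhans against T cell (36) and 1 in melanocyte against OB1 (4). Without the count filter IFE.SB against IFE.B gave 19 and OB2 against OB1 10. At double resolution OB1 against uHF.B gave 63 and OB2 against OB1 3. With equal cell numbers Langerhans gave 22 and melanocytes 2, and with DESeq2 melanocytes gave 9, 6 higher and 3 lower. Without HF cluster 11, an alternative chosen after seeing the data, OB2 against OB1 gave 9. Leaving out each library gave 15 to 37 (IFE.SB), 15 to 24 (uHF.SB), 8 to 43 (OB1), 2 to 8 (OB2), 72 to 76 (SG), 53 to 64 (T cell), 24 to 37 (Langerhans) and 1 to 5 (melanocyte). Nuclear ratios of 16 h to 0 h at the 5% limit and as cell medians were 1.6 and 1.46 in OB1 (1.55 as reported), 1.86 and 1.88 in uHF.B (1.82), and 1.39 and 1.36 in IFE.B (1.38). The mt- ratios of 2 d to 0 h were 1.09 and 1.28 in OB1 (1.246), 1.253 and 1.53 in uHF.B (1.51), 1.32 and 1.4 in IFE.B (1.42), and 1.05 and 1.13 in T cells (1.11), and over all deposited barcodes 1.76 (1.56 in analysed cells). With a lower fold limit the 16 h counts were 69 in OB1, 57 in IFE.B, 42 in IFE.SB and 51 in T cells. The cause of these changes was not tested. Limits: the mitochondrial limit removes cells by an mt- measure, time and library cannot be told apart, and reads in introns, if counted, cannot be separated.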
